A study of Gossypium hirsutum with 24 samples.

Results

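Flower buds of upland cotton (Gossypium hirsutum) from which the anthers had been removed were compared with seedlings, vegetative tissue of the same species. The comparison took every array titled as flower parts and every array titled as seedling, which are 12 of the 24 arrays of the series: 9 of buds and 3 of seedlings. Bud arrays came from buds of 5, 7 and 8 mm, with 3 arrays for each size, and the sizes were weighted equally. Seedlings were harvested 5 days after germination. The series also holds 9 arrays of the dissected anthers and 3 of young leaf from plants 1 month old, which are used here for the common estimate of spread and as reference levels. The series covers buds before, during and after meiosis, but the labels do not pair a size with a stage, and neither a cultivar nor the organs left in each bud or seedling sample are given in the sources used here. Transcript levels were measured on the Affymetrix Cotton Genome array, whose probe sets each report a transcript or a group of related transcripts, and all levels below are the authors' log2 signals, so that a difference of 1 is a doubling of signal.

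A cotton bud holds green bracts and sepals around the petals, and at its centre the pistil with its ovules, from whose epidermis the cotton fibre later grows. Floral organs take their identity from MADS-box transcription factors, which act in combination, while a seedling a few days old is expanding, rooting and building its photosynthetic apparatus. Ethylene, a hormone of flowers and fruits, is formed from S-adenosylmethionine by ACC synthase and then ACC oxidase.

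Of 23977 probe sets that were not controls, 17666 exceeded background, a log2 signal of 2.23, on at least 3 arrays and were tested. A probe set was called when its difference between the mean of the bud sizes and seedling was at least 1 on the log2 scale with an adjusted p under 0.05 in limma. By this rule 2609 probe sets (14.8% of those tested) were higher in buds and 2591 (14.7%) were lower. In 4639 of the 5200 calls, which are 26.3% of those tested, no bud array overlapped the seedling arrays. The median size of the called differences was 1.91 among higher and 1.92 among lower calls. A difference of at least 4 was reached by 279 higher and 284 lower probe sets, and one of at least 8 by 8 and 14. Set beside each other, 5 mm buds gave 2599 higher and 2583 lower calls against seedling, 7 mm buds 2627 and 2554, and 8 mm buds 2553 and 2570, which are between 14.5% and 14.9% of those tested. These counts share the seedling arrays, so they are not independent of each other.

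**Figure D1:**
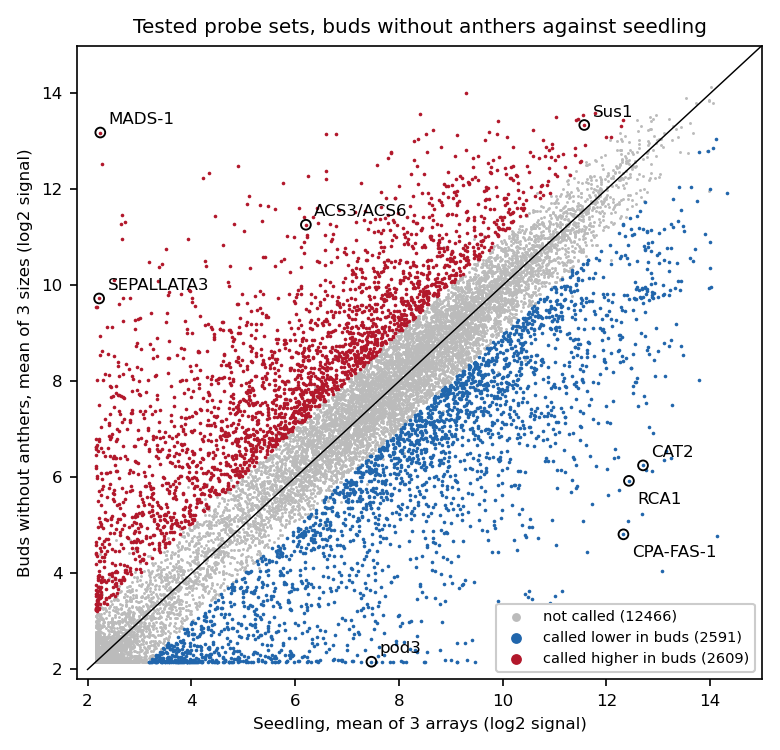
Mean log2 signal of each of the 17666 tested probe sets in seedling (horizontal axis, 3 arrays) and in buds without anthers (vertical axis, mean of the 3 sizes). Red and blue points are the 2609 probe sets called higher and the 2591 called lower in buds, grey points were not called, the line marks equal signal, and circled points are genes named in the text.

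The balance of the counts rests on the authors' normalization, which set the arrays to a common level. The bioB, bioC and bioD controls, bacterial transcripts that are added to each hybridization, averaged 8.74 (range 8.48 to 9.07) on the bud arrays and 9.80 (range 9.60 to 10.12) on the seedling arrays. Spike-in scaling shifted each array to a common level of these controls and then raised values under 3.04 to that floor. The shift and the floor together moved the median of the tested differences from 0.00 to 0.84 and took the calls to 7544 higher and 1093 lower, so that 87.3% of calls were higher in buds instead of 50.2%. Differences below are therefore relative to the median probe set, and a call that ended under this scaling is named as such. Because tissues were compared in bulk, fewer cells of a type and less RNA per cell cannot be told apart.

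The bud arrays were alike across sizes, with a median correlation over probe sets of 0.983 within and 0.978 between sizes, against 0.994 among seedlings and 0.858 between buds and seedlings. Several bud arrays stood apart. The 7 mm bud replicate 3 had a 3′ to 5′ actin difference, a measure of shortened RNA, of 6.28, against 2.93 to 3.39 on the other bud arrays. The 5 mm bud replicate 2 was the lowest bud array by at least 1 log2 unit in 437 of the 2609 probe sets called higher, in 24 of the 2591 called lower and in 588 of all 17666 tested. The same counts for 7 mm bud replicate 3 were 127, 130 and 902, the most of any bud array over all tested probe sets. The 8 mm bud replicate 6 lay at least 2 log2 units below both other arrays of its size in 152 tested probe sets. By this measure 5 mm bud replicate 2 had 543, 7 mm bud replicate 3 had 639, and the remaining bud arrays had 0 to 5. With these 3 bud arrays that stood apart left out, 2757 probe sets were higher and 2710 lower.

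The platform annotation gave a single gene for 634 of the tested probe sets, which belong to 495 genes, and the gene table of assembly Gossypium_hirsutum_v2.1 gave a further name for 231 of these genes. Taking for each gene the probe set with the highest mean over all arrays, 96 of the 495 genes (19.4%) were higher in buds and 102 (20.6%) were lower. The names were sorted into 25 lists by family or process, with 150 tested genes. The shares of 19.4% and 20.6% are the background for the counts of these lists, many of which hold few genes. The remaining probe sets are unnamed here.

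**Figure D2:**
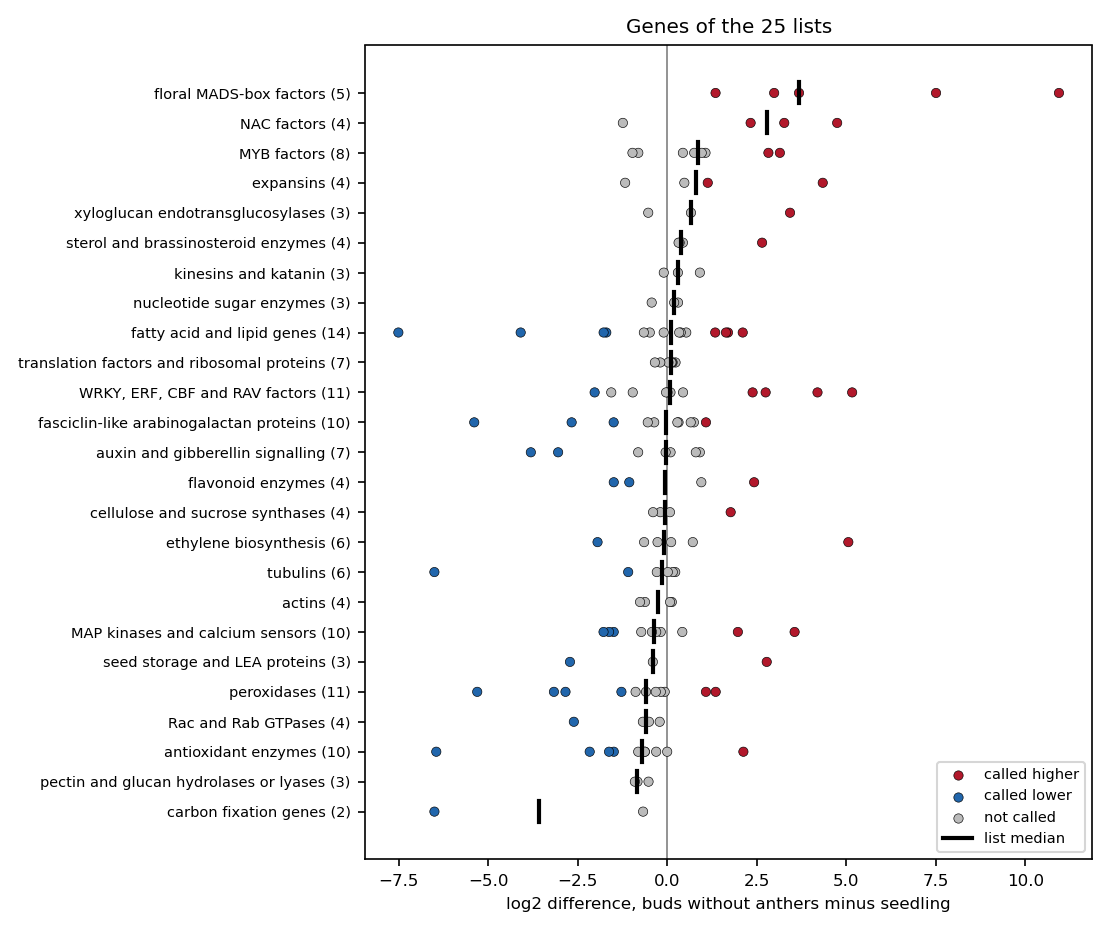
Log2 difference between buds without anthers and seedling for the tested genes of the 25 lists, 1 point a gene, with the number of genes in brackets. Red and blue points were called higher and lower in buds, grey points were not called, and the black bar is the list median. The 5 MADS-box genes lie on the higher side, and the list medians run from 3.68 for these to -3.59 for the 2 carbon fixation genes.

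All 5 genes of the list of MADS-box names were higher in buds than in seedling. Over all genes with 1 symbol 19.4% were higher. The differences of the 5 ran from 1.35 to 10.94 with a median of 3.68, against a median of 0.00 over all tested probe sets. MADS-1 (LOC107933402) had the largest rise among the tested probe sets as fitted. Its signal ran from 12.83 through a median of 13.24 to 13.58 on the bud arrays, and was 2.16, 2.29 and 2.29 on the seedling arrays. It was thus at or near background in every seedling and far above it in every bud, with a difference of 10.94 (SE 0.11, adjusted p = 1.5e-22). SEPALLATA3 (LOC107909849), named after the Arabidopsis factor that joins the other organ identity factors in complexes, ran from 8.92 through 9.82 to 10.23 in buds. It read 2.16, 2.35 and 2.16 in seedlings, a difference of 7.51 (SE 0.18, adjusted p = 6.1e-17), and the groups were far apart. Since 1 and 2 of the 3 seedling arrays lay at or under background, these differences depend on the lowest value of the table, and with all values under background raised to it they were 10.92 and 7.46. In the 16 named calls of this kind the step took at most 0.05 off the difference. Both genes were also high in the dissected anthers, with group means of 12.81 to 13.21 for MADS-1 and 9.56 to 10.00 for SEPALLATA3, and near background in leaf, at 2.33 and 2.44.

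MADS-2 (LOC107914052) differed between the bud sizes. It read 4.47, 3.20 and 2.80 in 5 mm buds, 6.23, 6.09 and 6.61 in 7 mm buds, and 8.32, 7.90 and 8.02 in 8 mm buds, while seedlings read 2.28, 2.27 and 2.29. Each size lay above the one before it without overlap, and the F test among sizes gave an adjusted p of 7.3e-08. Over the sizes its difference from seedling was 3.68 (SE 0.22, adjusted p = 3.4e-11). It was near background in anthers of every size, at 2.34 to 2.37, and in leaf, at 2.34. MADS-3 (LOC107925198, also MADS10) was present in seedlings, at 7.31, 7.21 and 7.35, and ran from 9.40 through 10.46 to 10.95 in buds. Its difference of 2.98 (SE 0.13, adjusted p = 3e-13) also differed between sizes, with means of 9.64, 10.38 and 10.81 from 5 to 8 mm (F test, adjusted p = 0.00073). It was brighter still in anthers, at 12.37 to 12.85. MADS-9 (LOC107893918) had low signals throughout, at 3.87 to 4.51 in buds and 3.19, 2.27 and 2.72 in seedlings, and differed by 1.35 (SE 0.23, adjusted p = 7.3e-05).

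**Figure D3:**
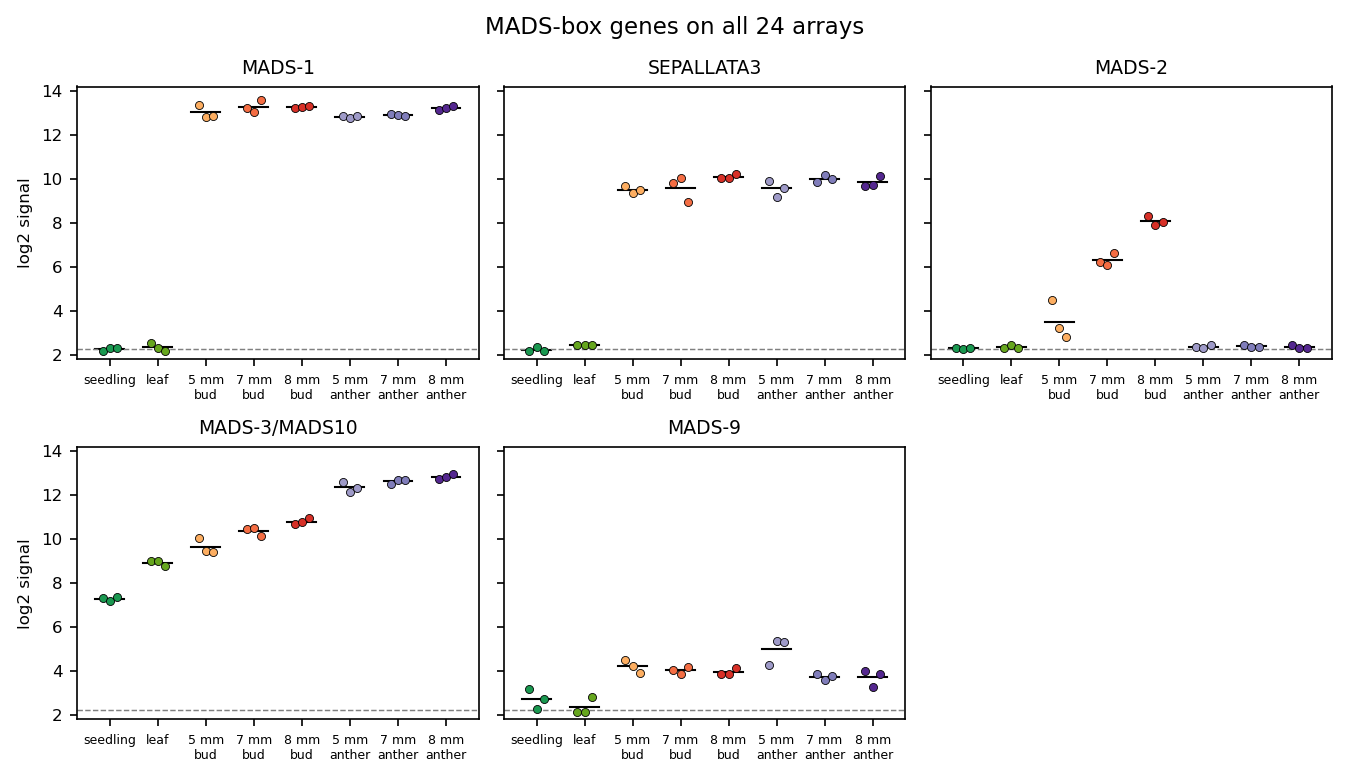
Log2 signal of 5 MADS-box genes on all 24 arrays, 1 point an array, with the mean of each group of 3 as a bar and background (2.23) as a dashed line. MADS-1 and SEPALLATA3 are high in buds and anthers and near background in seedling and leaf, and MADS-2 is higher in each larger bud size and near background elsewhere.

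NAC factors are plant regulators of development and stress. Of 7 on the array 4 passed the background filter, and 3 of the 4 tested were higher in buds, with a list median of 2.80. The share higher among all genes with 1 symbol was 19.4%. NAC4 (LOC107916546) was measured by a pair of probe sets. On the brighter one its signal ran from 7.35 through 11.46 to 12.04 in buds and was 6.14, 6.08 and 6.30 in seedlings. Every bud array lay above the seedlings, but the lowest, 5 mm bud replicate 2, was well below the next, at 10.08. The differences were 4.74 (SE 0.67, adjusted p = 6.5e-06) and 4.84 (SE 0.72, adjusted p = 1.2e-05). NAC7 (LOC107909534) was steady across buds, at 7.16 to 7.81 with a median of 7.38, against 4.12, 4.29 and 4.07 in seedlings, a difference of 3.27 (SE 0.20, adjusted p = 9.6e-11). Another NAC7 probe set was not called. NAC2 (LOC107962533) differed by 2.33 (SE 0.55, adjusted p = 0.0013), from a bud median of 12.40 to 9.55, 9.95 and 9.63 in seedlings, and here 5 mm bud replicate 2, at 8.41, lay below the seedlings. The gene named NAC5 and NAC8 was not called, with a difference of -1.24 (adjusted p = 0.42).

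MYB factors control, among other things, pigment and epidermal cell types, and 2 of 8 were called higher and none lower, a share near the 19.4% higher among all genes with 1 symbol. MYB5/MYB6 (LOC107912705) ran from 5.93 through 6.43 to 7.49 in buds, above the 3.43, 3.58 and 3.31 of seedlings, a difference of 3.14 (SE 0.22, adjusted p = 5.2e-10). The gene myb109 (LOC107961466), which is known from cotton fibre initials, ran from 4.75 through 5.52 to 6.30, above 2.97, 2.56 and 2.63, a difference of 2.82 (SE 0.22, adjusted p = 2.5e-09). It was brighter in anthers, at 8.52 to 9.18, and near background in leaf, at 2.33. GHMYB38 (LOC107932200) depended on the probe set. One rose from 2.16, 2.31 and 2.59 in seedlings to 5.44 to 6.83 in buds, a difference of 3.75 (SE 0.22, adjusted p = 3e-11), and the other was not called, at 1.07 (adjusted p = 0.34). Without the 3 bud arrays that stood apart, 4 of the 8 were higher and 1 was lower.

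The WRKY, ERF, CBF and RAV families hold many factors that respond to wounding, cold or pathogens. Of 11 tested genes 4 were higher and 1 was lower, against 19.4% and 20.6% of all genes with 1 symbol, and the median was 0.09. These counts take the brightest probe set of each gene. Dimmer probe sets of WRKY15 (-1.77), RAV1 (-1.28) and CBF17 were called lower, while the brightest ones were not called. Those of WRKY15 and RAV1 were not called under spike-in scaling (-0.56 and -0.21). WRKY24/WRKY71 (LOC107906829) ran from 8.45 through 11.87 to 12.50 in buds and was 7.38, 7.23 and 7.44 in seedlings, a difference of 4.20 (SE 0.54, adjusted p = 2.1e-06). DBP3b (LOC107890730), a DRE-binding factor, ran from 5.24 through 8.04 to 9.70 against 3.04, 2.88 and 2.73, a difference of 5.16 (SE 0.80, adjusted p = 2e-05). CBF20/DREB1C (LOC107898106), of the family of cold-response factors, ran from 8.25 through 9.65 to 10.16 against 7.06, 6.86 and 6.61, a difference of 2.75 (SE 0.35, adjusted p = 1.6e-06). In these 3 genes all buds exceeded all seedlings, and 5 mm bud replicate 2 was the lowest bud. ERF7 (LOC107941184), an ethylene response factor, differed by 2.38 (SE 0.62, adjusted p = 0.003), but 5 mm bud replicate 2, at 2.71, lay below the seedlings' 3.33, 3.29 and 3.04. ERF8 (LOC107922990) was lower in every bud, at 4.41 to 8.39 against 9.30, 9.37 and 9.38, a difference of -2.03 (SE 0.58, adjusted p = 0.0058) that was not called under spike-in scaling (-0.97).

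Genes of ethylene synthesis and of signalling moved in both directions. ACC synthase ACS3/ACS6 (LOC107947061) ran from 8.92 through 11.58 to 11.90 in buds against 6.61, 6.01 and 6.01 in seedlings. All buds were higher, by 5.06 on average (SE 0.52, adjusted p = 1.2e-07), and the lowest was again 5 mm bud replicate 2. ACC oxidase ACO3 (LOC107915412), the enzyme of the last step, was lower in all buds, at 8.57 to 10.30 against 11.62, 11.57 and 11.63, a difference of -1.95 (SE 0.30, adjusted p = 1.6e-05) that was not called under spike-in scaling (-0.89). The other 4 genes of this list, among them both named ACO1, were not called, and the list median was -0.08. MPK3 (LOC107959059), a stress-activated protein kinase, was called on 1 of its 6 probe sets, with a bud range of 6.70 to 12.06 around seedlings at 8.35, 8.49 and 8.54. Its difference of 1.97 (SE 0.75, adjusted p = 0.033) was not called without 5 mm bud replicate 3 (1.76, adjusted p = 0.056), nor without seedling replicate 5 (1.92), 6 (1.99) or 7 (2.01), without the filter on dim probe sets (adjusted p = 0.057) or in the fit of the 12 arrays alone (adjusted p = 0.11). CBL1 (LOC107912199), a calcium sensor, was higher in every bud, at 7.07 to 8.21 against 4.14, 4.31 and 4.72, a difference of 3.56 (SE 0.20, adjusted p = 1.9e-11), whereas its relative CBL2 (LOC107922500) was lower in every bud, at 8.52 to 9.24 against 10.30, 10.44 and 10.41. The CBL2 difference of -1.63 (SE 0.14, adjusted p = 1.5e-08), that of MPK23 (-1.50) and that of the ion channel CNGC2 (-1.78) were not called under spike-in scaling. Another probe set of CBL1 was not called. Of the 10 MAP kinases and calcium sensors tested, 2 were called higher and 3 lower, against 19.4% and 20.6% of all genes with 1 symbol.

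Several of these genes were lowest on the same bud array. The 5 mm bud replicate 2 was the lowest bud array for NAC4, NAC2, WRKY24/WRKY71, DBP3b, CBF20/DREB1C, ERF7, ACS3/ACS6, MPK3, CBL1 and the late embryogenesis gene Lea14-A, and for NAC2, ERF7, MPK3 and Lea14-A it lay below all seedling arrays. Without it the differences were 5.13 for NAC4 (brighter probe set), 2.74 for NAC2, 4.60 for WRKY24/WRKY71, 5.61 for DBP3b, 2.70 for ERF7, 5.34 for ACS3/ACS6 and 2.52 for MPK3, all still called. The array's actin 3′ to 5′ difference was 3.39, near those of the other buds except 7 mm bud replicate 3. Its ubiquitin 3′ to 5′ difference was 1.25, against 2.41 on 7 mm bud replicate 3 and -0.12 to 0.86 on the other buds. Whether dissection or handling differed between the bud samples was not tested. Leaf arrays also carried high signals for NAC4, at a mean of 9.83, WRKY24/WRKY71, at 10.79, and MPK3, at 11.29.

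**Figure D4:**
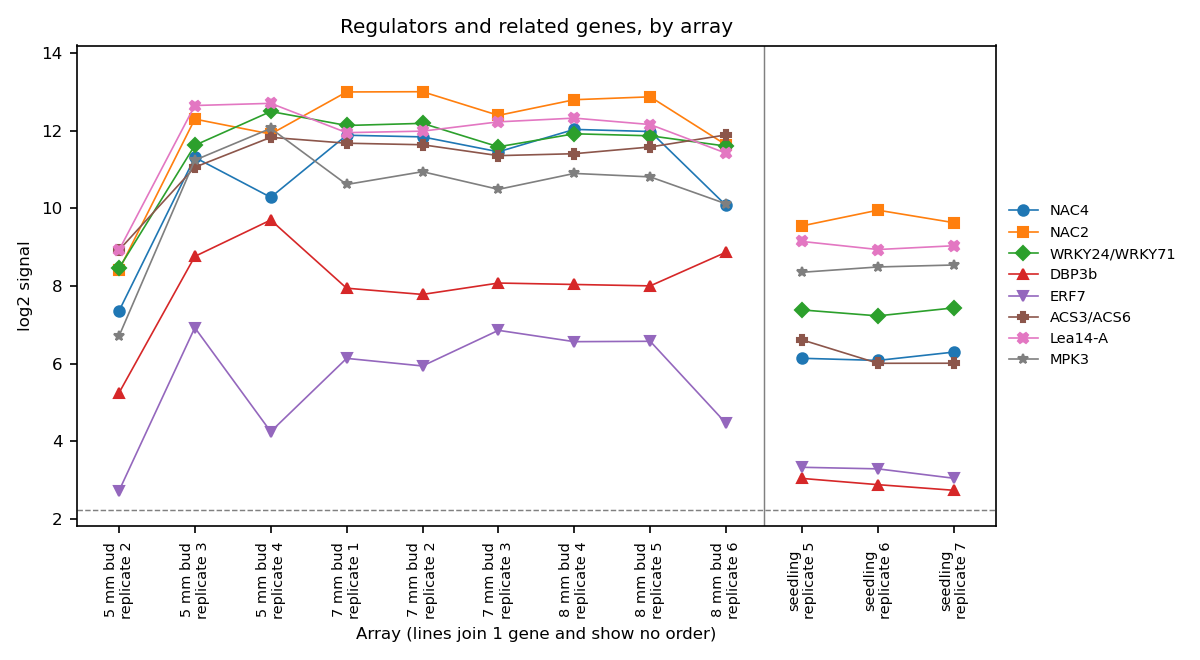
Log2 signal of 8 genes on each of the 9 bud and 3 seedling arrays. The first bud array, 5 mm bud replicate 2, is the lowest bud array for all 8 genes, and the seedling arrays lie close to each other. The dashed line is background (2.23), and lines only join the values of 1 gene.

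Among genes of wall loosening and of sugar supply to the wall, 2 of 4 expansins were called higher. So were 1 of 3 xyloglucan enzymes and 1 of 4 cellulose and sucrose synthases, against 19.4% of all genes with 1 symbol. EXPA1 (LOC107914543), an expansin, a class of proteins that loosen the growing wall, ran from 5.30 through 6.66 to 7.05 in buds against 2.17, 2.26 and 2.19 in seedlings. It differed by 4.34 (SE 0.21, adjusted p = 2.1e-12), or by 4.30 with values under background raised to it, since 2 seedling arrays lay there, and stood near background in anthers and leaf, at 2.21 to 2.26. The expansin EXPA4 (LOC107891056) differed by 1.13 (adjusted p = 0.00074) and was not called without the 3 bud arrays that stood apart (0.87) or with array weights (0.99). Its other probe sets were not called. Of 4 expansins these 2 were higher and none was lower, but with those arrays left out EXPA3D (LOC107904848), at -1.64, was called lower. XTH3 (LOC107913353), an enzyme that cuts and rejoins xyloglucan, ran from 4.83 through 6.26 to 6.61 against 2.61, 2.54 and 2.16, a difference of 3.43 (SE 0.18, adjusted p = 1e-11). Its mean was lowest in 5 mm buds, at 4.93, and 6.22 and 6.45 in the larger ones (F test, adjusted p = 0.0013). The sucrose synthase Sus1 (LOC107958826), which supplies glucose units for the wall, was higher in every bud, at 12.88 to 13.67 with a median of 13.39 against 11.56, 11.55 and 11.61, a difference of 1.77 (SE 0.18, adjusted p = 1.3e-07). The cellulose synthase CelA1 (LOC107909647) was not called, with a difference of -0.19 (adjusted p = 0.81), nor were the 3 nucleotide sugar enzymes and the 3 pectin and glucan enzymes.

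Fasciclin-like arabinogalactan proteins, which sit at the cell surface, included 3 lower and 1 higher of 10 tested genes. All genes with 1 symbol gave 20.6% and 19.4%. FLA4 (LOC107946184) ran from 4.00 through 5.08 to 5.66 in buds against 10.49, 10.51 and 10.56 in seedlings, so that the groups lay far apart, with a difference of -5.39 (SE 0.26, adjusted p = 1.8e-12). FLA19 (LOC107954983) was lower on all 3 of its probe sets, by -3.79, -3.15 and -2.67. FLA7 (-1.50) was not called under spike-in scaling, and FLA15, higher by 1.08, was not called with array weights (0.95), without 5 mm bud replicate 2 (0.96) or with all 3 outlying bud arrays left out (0.93). The other 6 were not called, and the list median was -0.04.

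The cytoskeleton lists were mostly not called, apart from tubulins. None of 4 actins and none of 3 kinesins or katanins was called, while 2 of 6 tubulins were lower. Over all genes with 1 symbol 20.6% were lower. BTub1/BTub2 (LOC107962977) read 12.45, 12.08 and 12.19 in seedlings and 3.34 to 7.56 in buds, a difference of -6.51 (SE 0.32, adjusted p = 2.1e-12). Its bud means were 4.09, 5.59 and 7.51 at 5, 7 and 8 mm (F test, adjusted p = 0.00019), so it came nearest to the seedling level in the largest buds. BTub3 (LOC107925867) differed by -1.09 (SE 0.18, adjusted p = 5.1e-05), and it was not called under spike-in scaling (-0.03) or without 5 mm bud replicate 3 (-0.98). The other 4 tubulins had differences of -0.29 to 0.22. None of the 7 translation factors and ribosomal proteins was called.

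A gene of carbon fixation and the catalase were far lower in buds. Rubisco activase RCA1 (LOC107942112), which keeps the carbon-fixing enzyme active, ran from 4.10 through 5.84 to 6.99 in buds against 12.48, 12.46 and 12.37 in seedlings. Every bud lay more than 5 log2 units below every seedling, the difference was -6.51 (SE 0.39, adjusted p = 4.1e-11), and leaf stood at 13.28. Catalase CAT2 (LOC107943729), which removes hydrogen peroxide, ran from 5.56 through 6.14 to 7.34 against 12.72, 12.68 and 12.72, a difference of -6.45 (SE 0.25, adjusted p = 7.2e-14), with leaf at 13.32. The other carbon fixation gene tested, PEPC1, differed by -0.68 and was not called. The high MADS-1 and SEPALLATA3 in buds and the high RCA1 in seedling and leaf go with the tissue labels, while markers of leftover anthers and of roots could not be named from the annotation used.

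Of the 10 antioxidant genes tested 4 were lower and 1 was higher, against 20.6% and 19.4% of all genes with 1 symbol. The list median was -0.72. Beside CAT2 the lower ones were the superoxide dismutases FeSOD (LOC107894059) and CSD2 (LOC107889076) and the ascorbate peroxidase gAPX (LOC107927982). FeSOD ran from 5.31 through 6.08 to 6.46 in buds against 8.13, 8.26 and 8.22, a difference of -2.17 (SE 0.22, adjusted p = 9e-08). The differences of gAPX, at -1.63, and CSD2, at -1.49, were not called under spike-in scaling. Dehydroascorbate reductase DHAR1 (LOC107959887), which regenerates ascorbate, was higher in every bud, at 12.12 to 12.91 with a median of 12.74 against 10.73, 10.51 and 10.51, a difference of 2.13 (SE 0.15, adjusted p = 7.9e-10).

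Class III peroxidases, which act in the wall and on phenolics, had 4 lower and 2 higher of 11 tested genes. The shares over all genes with 1 symbol were 20.6% and 19.4%. The gene pod3 (LOC107927057) lay at the table's floor of 2.16 on all 9 bud arrays and read 7.38, 7.38 and 7.66 in seedlings, which makes it at least 37.7-fold lower in buds (adjusted p = 1.7e-19). The signal of pod3 was at the floor in all anther groups too and at 9.97 in leaf. Arrays at the floor show no spread, so this p does not measure the spread between those samples. The gene pod10 (LOC107914313) ran from 5.52 through 6.15 to 7.73 against 9.47, 9.58 and 9.53, a difference of -3.17 (SE 0.21, adjusted p = 1.9e-10). The peroxidase LOC107905931 differed by -2.84 (SE 0.26, adjusted p = 2.3e-08), and pod1, at -1.28, was not called under spike-in scaling. The 2 higher ones, LOC107951876 (1.35) and POX10 (1.08), were not called without the 3 bud arrays that stood apart (0.94 and 0.81), and POX10 also not without 5 mm bud replicate 2 (0.87) or with array weights (0.96).

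**Figure D5:**
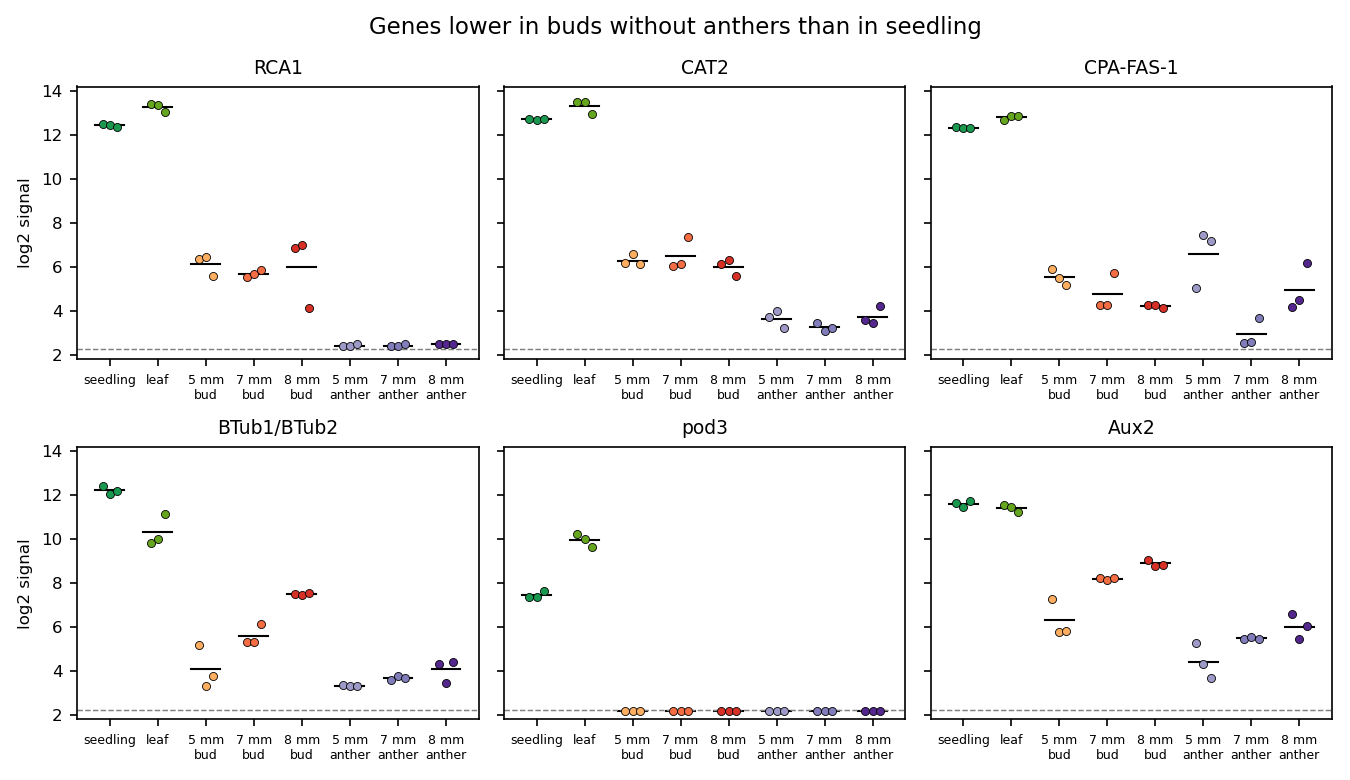
Log2 signal of 6 genes that were lower in buds than in seedling, on all 24 arrays, 1 point an array, with the mean of each group of 3 as a bar and background (2.23) as a dashed line. All are high in seedling and leaf, pod3 stands at 2.16 in every bud and anther, and BTub1/BTub2 and Aux2 are higher in the larger buds.

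Lipid genes were called in both directions, 4 of 14 higher and 4 lower, with a median of 0.12. Over all genes with 1 symbol 19.4% were higher and 20.6% lower. Cyclopropane fatty acid synthases add a ring to membrane fatty acids, and CPA-FAS-1 (LOC107933118) had the largest fall among the named genes. It ran from 4.10 through 4.25 to 5.90 in buds against 12.34, 12.32 and 12.32 in seedlings, a difference of -7.51 (SE 0.46, adjusted p = 6.1e-11). CPA-FAS-3 (LOC107932144) ran from 5.54 through 5.88 to 6.11 against 9.85, 9.96 and 10.13, a difference of -4.10 (SE 0.27, adjusted p = 2.1e-10), whereas CPA-FAS-2 (LOC107936133) differed by 0.38 and was not called. KCS45, also named FDH (LOC107893385, -1.71), of the synthases that lengthen fatty acids, and the acyl-CoA binding protein ACBP (LOC107963602, -1.78) were lower in all buds and not called under spike-in scaling. On the higher side, the stearoyl-ACP desaturase sad1 (LOC107914399) differed by 2.11, the thioesterase FatB1 (LOC107932873) by 1.34, the desaturase FAD78 (LOC107899542) by 1.64 and the lipid transfer protein LTP (LOC107896815) by 1.69. FAD78 overlapped, with 5 mm bud replicate 2 at 6.11 below seedlings at 6.71, 6.92 and 6.83, and LTP did not, at 11.60 to 12.30 against 10.32, 10.29 and 10.29. Another probe set of FatB1 and another of LTP were not called. The sterol methyltransferase SMT2-2 (LOC107905551), which shapes plant sterols, differed by 2.65 (SE 0.41, adjusted p = 1.9e-05), with 7 mm bud replicate 3, at 7.72, within the seedlings' 7.45 to 7.75.

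The hormone response genes Aux2 and Aux6, members of the auxin-induced family, were the only called genes of the 7 on auxin and gibberellin signalling, both lower. Aux2 (LOC107941658) ran from 5.79 through 8.24 to 9.07 in buds against 11.66, 11.47 and 11.73, a difference of -3.81 (SE 0.30, adjusted p = 2.6e-09), and its means of 6.31, 8.21 and 8.90 differed between sizes (F test, adjusted p = 0.0013). Aux6 (LOC107928986) was steady, at 7.75 to 8.25 against 10.98, 11.03 and 10.97, a difference of -3.05 (SE 0.24, adjusted p = 2.2e-09). With the 3 bud arrays that stood apart left out, 2 other genes of this list, Aux4 and the gibberellin receptor GID1-2 (1.62), were called higher. The small GTPase Rac9 (LOC107960222) was the only called gene of 4 Rac and Rab GTPases, at 2.47 to 3.38 in buds against 5.11, 5.26 and 5.34, a difference of -2.61 (SE 0.12, adjusted p = 1.7e-12).

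Chalcone synthases, which open the flavonoid pathway, did not move together. CHS6 (LOC107934821) ran from 2.65 through 5.64 to 6.66 in buds against 2.62, 3.51 and 2.78, a difference of 2.42 (SE 0.50, adjusted p = 0.00038), with 7 mm bud replicate 3 down among the seedlings. CHS3 (LOC107912380) was lower in every bud, at 6.17 to 7.69 against 8.92, 8.83 and 8.77, a difference of -1.50 (SE 0.31, adjusted p = 0.00037). CHS2 (LOC107927759) differed by -1.06 (adjusted p = 0.029), overlapped, and was not called without seedling replicate 5 (-0.65) or 7 (-0.95), after quantile normalization (-0.93, adjusted p = 0.057) or with array weights (-0.94). Neither fall was called under spike-in scaling. The late embryogenesis genes also split, with Lea14-A (LOC107922715), at 8.92 to 12.71 in buds against 9.15, 8.94 and 9.04, higher by 2.78 (SE 0.65, adjusted p = 0.0013). Lea5-D (LOC107916177), at 8.57 to 12.07 against 12.90, 12.87 and 12.88, was lower in every bud, a difference of -2.72 (SE 0.64, adjusted p = 0.0013). The seed storage gene LEGB (LOC107914926) was not called, at -0.40 (adjusted p = 0.2).

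Among the genes that moved furthest, several had a locus number only and are given without a function. Genes entered the 15 largest rises and falls only where no bud array overlapped the seedlings. LOC107895262 ran from 8.93 through 9.49 to 10.82 in buds against 2.70, 2.45 and 2.68 in seedlings, a difference of 7.01 (SE 0.25, adjusted p = 2e-14). LOC107896372 stood at 12.87 to 13.56 in buds and read 6.60, 6.43 and 6.74 in seedlings, a difference of 6.57 (SE 0.15, adjusted p = 2.2e-17). LOC107959710 (6.67) and LOC107888194 (6.30) were also higher, and the second was near background in anthers, at 2.21 to 2.81, and in leaf, at 2.35. The other such rises among the 15 largest were LOC107946138 (5.55), LOC107907037 (4.72), LOC107937059 (4.49), LOC107907413 (4.25) and LOC107933763 (4.22). Another probe set of LOC107946138 and another of LOC107907413 were not called. On the lower side LOC107898061 stood at 2.16 on all bud arrays against 9.45, 9.44 and 9.50 in seedlings, at least 150-fold lower, and leaf stood at 2.16 as well. LOC107954549 ran from 3.81 through 4.47 to 5.31 against 10.78, 11.30 and 11.01, a difference of -6.45 (SE 0.14, adjusted p = 1e-17). Pat1 (LOC107958101) differed by -5.99, LOC107947008 by -5.57, LOC107909128 by -4.56, LOC107940910 and LOC107953769 by -4.46, LOC107958776 by -4.31 and LOC107925162 by -4.15. The buds varied most in LOC107947008, from 2.72 to 9.60, and in LOC107909128, from 2.16 to 6.88.

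Probe sets that the annotation does not pair with a gene moved as far. The largest unnamed rises were 1 probe set at 12.11 to 12.84 in buds against 2.16, 2.50 and 2.16 in seedlings (difference 10.25, SE 0.11), and another at 10.81 to 11.93 against 2.53, 2.74 and 2.74 (difference 8.80, SE 0.15). The largest unnamed falls were 1 probe set at 2.16 on all bud arrays against 13.01, 12.91 and 13.03, at least 1720-fold lower, and another at 2.22 to 4.17 against 13.54, 13.58 and 13.78 (difference -10.70, SE 0.19). Leaf shared the low level of the first fall, at 2.18, and stood at 4.60 for the second.

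The bud sizes themselves differed in few probe sets. The F test among the sizes compared bud means only, but its spread was pooled over all groups of the series, seedlings included. It gave an adjusted p under 0.05 for 578 of 17666 probe sets (3.27%). Among the 5200 probe sets called against seedling in either direction, which are 29.4% of those tested, it did so for 308 (5.92%). The calls rest on the same pooled spread, so these shares are not independent of each other. The count of 308 depended on the fit and on single arrays. It was 126 in the fit of the 12 arrays alone and 201 without the filter on dim probe sets. Leaving out 8 mm bud replicate 5 gave 141, leaving out 8 mm bud replicate 4 gave 166 and leaving out 5 mm bud replicate 4 gave 202. Leaving out 7 mm bud replicate 3 gave 470. Among called genes with 1 symbol, those with the smallest p were MADS-2, LOC107950111, BTub1/BTub2 and LOC107938326. LOC107950111 stood at 2.16 in all seedlings and had bud means of 2.79, 5.26 and 5.25 (adjusted p = 0.00016), and LOC107938326 read 11.87, 12.06 and 11.92 in seedlings with bud means of 7.65, 9.47 and 9.96 (adjusted p = 0.00058). In these genes the 5 mm buds had the lowest mean of the sizes, whichever side of seedling the buds lay on.

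Genes measured by several probe sets did not always give 1 answer. Of 101 such genes 45 had at least 1 called probe set. Fitted differences, called or not, were of opposite sign between probe sets in 16 of the 45. In 7 of the 45 all probe sets were called the same way, and in 37 the calls ran in 1 direction with other probe sets not called. LOC107889072 had calls in both directions, at 3.01, -2.95, -3.02 and -3.44. The falls of -2.95 and -3.02 were not called under spike-in scaling (-1.88 and -1.96, adjusted p = 0.11 and 0.060). The cold-response factor CBF17 (LOC107913841) differed by 0.44 on its brightest probe set, which was not called, and by -2.53 (SE 0.20, adjusted p = 3.8e-09) on a dimmer one. Names ending in s_at or x_at, which 8481 of the tested probe sets carry, mark probes that can bind several related transcripts, and cotton is a tetraploid with a pair of similar copies of most genes.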

How the data were processed

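Per the labels' protocols, RNA of 24 samples was labelled by 3′ in vitro transcription for the Affymetrix Cotton Genome array. The deposited values are log2 signals that the authors made with GCRMA, per the submitters' processing notes of a version not given in the sources used here. All 24 value columns were matched by their labels, and 26.2% of values stood at the lowest value, 2.16, where differences are compressed.

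Control probe sets (155 of 24132) were left out of the tests. Background was the 95th percentile of the 69 reporter and tag controls for which the labels say that no target was added. Using limma 3.58.1 (R 4.3.3), 8 group means were estimated from the 24 arrays together, and two-sided moderated p-values were adjusted by Benjamini-Hochberg over the 17666 tested probe sets. The contrast was the mean of the 3 bud groups minus seedling. A fold against a group without any array above background is a lower bound, taken against background. The number of arrays limits the precision, and the series calls the replicates biological without naming plants. The p-values rest on a spread between samples pooled over all 8 groups, not on that of buds or seedlings alone. Scan dates and slides were not used here.

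Genes came from the platform annotation (697 probe sets with 1 symbol, 46 with several, left unnamed), which can be old, and all 697 were matched to the gene table of Gossypium_hirsutum_v2.1, whose other names were used. No coordinates or sequences are printed. Lists by product name, protein pattern and promoter letters, as planned, could not be applied, since the tables used here hold neither product names nor sequences, and lists by other gene names took their place. Members and lists were chosen with earlier results of these data known. Named are the 15 largest rises and the 15 largest falls without overlap among genes with 1 symbol. So are the 4 with the smallest p among bud sizes and the 2 largest unnamed rises and falls. List genes called on their brightest probe set are named as well. List genes called only on another probe set, and genes with several probe sets of which 1 was called, are named only in part. Uncalled list genes and genes in the closing section were picked after their values were seen.

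Alternatives changed the filter, the lowest value, the normalization (quantile, median or spike-in), the variance prior, array weights, the arrays fitted, the thresholds and the types of probe set, added the replicate number as a block, or left arrays out. The fit was tested on simulated data. Figures were drawn with matplotlib 3.10.9.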

Additional observations from a re-analysis of the deposited data

Results flagged for a closer look

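In 9 bud arrays, 1 array can lie far from the others, measured as its gap to the nearest array over the whole range; a gap above Dixon's 95% critical value is listed here, and chance gives about 1 such case in 20. The actin 3′ to 5′ difference of 7 mm bud replicate 3 had a gap of 0.861. The same array was the highest bud for Pat1 (LOC107958101, gap 0.893) and LOC107933763 (0.602) and the lowest for the unnamed probe set with the second largest rise (0.508). The 5 mm bud replicate 2 was the lowest bud for ACS3/ACS6 (LOC107947061, 0.72), NAC4 (LOC107916546, 0.582), DBP3b (LOC107890730, 0.57) and FLA4 (LOC107946184, 0.499). The 5 mm bud replicate 3 was the lowest for EXPA1 (LOC107914543, 0.568), and 8 mm bud replicate 6 for LOC107958776 (0.597).

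By the F test of limma among the 3 sizes, the difference from seedling itself differed between bud sizes in 9 cases. These are genes and probe sets that moved furthest or were named for this test. MADS-2, LOC107950111, BTub1/BTub2 and LOC107938326 were picked for the smallest p among called genes with 1 symbol, so their p reflects that choice. The count of 9 is therefore not comparable with the background shares. Those were 3.27% of all tested probe sets and 5.92% of called ones, at an adjusted p under 0.05. The adjusted p was 7.31e-08 for MADS-2 (LOC107914052), 0.000161 for LOC107950111, 0.000193 for BTub1/BTub2 (LOC107962977), 0.000288 for the unnamed probe set with the second largest fall, 0.000577 for LOC107938326, 0.000585 for LOC107954549, 0.00207 for LOC107959710, 0.00311 for LOC107953769 and 0.0037 for LOC107888194. The means were 3.92, 5.27 and 4.56 in 5, 7 and 8 mm buds for LOC107954549, and 3.93, 6.37 and 7.23 for LOC107953769. For LOC107959710 they were 8.50, 9.33 and 9.57, and for LOC107888194 8.08, 8.47 and 9.08.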

How the results depend on the processing

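Spike-in scaling, which includes a floor, moved the counts most, to 7544 higher and 1093 lower. Without a minimum difference they were 4889 and 4635, with an adjusted p under 0.01 and a difference of at least 2 they were 1207 and 1199, tested against a difference of 1 they were 1526 and 1632, and without s_at and x_at probe sets, where fewer were tested, 1448 and 1400. The other filters, the floor, both other normalizations, array weights, the variance prior and the smaller fits kept both counts within 1.5 times. Leaving out 1 array gave 2546 to 2690 higher and 2511 to 2649 lower. The 308 probe sets that also differed among bud sizes became 201 without a filter, 126 in the fit of the 12 arrays and 141 to 470 with 1 bud array left out; the cause was not tested. Labels share replicate numbers between groups. The deviations of same-numbered arrays correlated at 0.00029 and 0.041 for 8 mm buds and seedlings. They correlated at -0.16 to 0.13 in 3 pairs between bud sizes and at -0.22 to 0.12 in 6 pairs of buds and anthers of a size. In the 24 other same-numbered pairs, 8 mm buds with seedlings included, the range was -0.23 to 0.52. Pairs of unlike number between bud sizes ran from -0.66 to 0.61, so these values cannot show whether same-numbered samples were paired. With the replicate number as a block 2388 probe sets were higher, 2433 lower, and 48 differed among sizes. Of 161 called named values, 45 calls ended under spike-in scaling and 33 under the block, among the latter ERF7, ERF8, MPK3, CHS2, CHS3, Lea5-D, FAD78, POX10, LOC107951876, cdn1, HIS2B, a dimmer NAC2 probe set and 2 of LOC107889072. Spike-in scaling reversed 6 values: LOC107924317 to 1.06, LOC107926309 to 1.03, LOC107906148 to 1.02, LOC107909047 to 1.01, and LOC107913771 to 0.060 and LOC107900642 to 0.056. For these the scaling shift itself exceeds the difference. The lowest table value limits what can be said of dim groups: the dimmer group was at background on all its arrays in 50 higher and 135 lower calls.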

Other observations

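Genes with a name but in none of the lists also separated buds from seedlings. HOX3 (LOC107904747), a homeodomain factor known from cotton fibre initiation, ran from 4.16 through 4.58 to 4.97 in buds against 2.35, 2.21 and 2.16 in seedlings, a difference of 2.29 (SE 0.23, adjusted p = 9.2e-08). E6 (LOC107913945), a transcript first named in cotton fibre, ran from 10.02 through 10.75 to 11.19 against 9.16, 8.86 and 9.03, a difference of 1.68 (SE 0.19, adjusted p = 3.7e-07). Both groups of arrays were free of overlap for these genes. S-adenosylmethionine synthetase SAMS (LOC107910531), which makes the precursor of ethylene, was higher in every bud by 1.58 (SE 0.18, adjusted p = 5.4e-07). The histone gene HIS2B (LOC107963943) was higher in every bud, at 12.94 to 13.25 against 12.09, 12.03 and 12.13, by 1.01, and was not called without seedling replicate 6 (0.98), after median centring (0.94) or with array weights (0.999).

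On the lower side the germin-like protein Glp1 (LOC107907099) ran from 10.02 through 10.76 to 12.13 against 12.80, 12.77 and 12.84, a difference of -1.91, and the cadinene synthase cdn1 (LOC107903500), of the path to the cotton terpenoid gossypol, from 8.74 through 9.14 to 10.15 against 10.26, 10.53 and 10.51, a difference of -1.12. Neither was called under spike-in scaling. HrBP1 (LOC107929175) was lower in every bud by -2.75 (SE 0.15, adjusted p = 9.1e-12).

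The share of calls is given by the start of the probe set name, with no test between these classes. Of 1736 probe sets with names starting in Gra, 6.57% were higher and 18.2% lower, and of 1518 starting in GraAffx 6.92% and 12.6%. Of 8439 starting in Ghi, 16.0% were higher and 13.0% lower, and of 5872 starting in GhiAffx 17.5% and 16.4%. The 65 starting in GarAffx had 13.8% each way, and the 36 starting in GbaAffx 8.33% higher and 30.6% lower.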
